A study of Mus musculus with 6 samples.

Results

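Pisd and its pseudogenes were read by 12 of the 45037 probe sets of a mouse expression array, chosen as all probe sets whose platform annotation carries the symbol Pisd, Pisd-ps1, Pisd-ps2 or Pisd-ps3. A probe set is a group of short oligonucleotides that together report the level of a transcript, here as MAS5 signal on a linear scale. The arrays compared 3 samples of B.D(Chr5) mice with 3 samples of C57B/L6 mice, all adult females of 6 to 16 weeks, with no treatment named. RNA came from primary bone marrow from which cells bearing mature blood lineage markers had been removed, 1 sample per array, and the labels call the samples of a strain biological replicates. The name of the B.D(Chr5) strain points to chromosome 5, its background is labelled B.D, and the labels do not say how it was made or whether a sample was 1 mouse or a pool, so the spread between samples may be partly technical. The family was picked because Pisd-ps3 probe sets were already known to differ between these strains. Strain differences of its probe sets are therefore given as a description. Where such a probe set is said to be called, this places it against the threshold used for all probe sets and tests nothing about the family.

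Pisd encodes phosphatidylserine decarboxylase, an enzyme of the mitochondrial inner membrane that turns phosphatidylserine into phosphatidylethanolamine, a main phospholipid of mitochondrial membranes. The enzyme is made as a proenzyme that cleaves itself to form its pyruvoyl active site, and mice that lack it die as embryos. Cells have another supply of phosphatidylethanolamine, the CDP-ethanolamine route of the endoplasmic reticulum. Pseudogenes are copies of a gene that are not thought to yield its functional product but can still be transcribed, and because they resemble the parent, short probes may pair with transcripts of either. In the RefSeq annotation of GRCm38.p6, Pisd is a protein-coding gene on chromosome 5. Pisd-ps1 on chromosome 11, Pisd-ps2 on chromosome 17 and Pisd-ps3 on an unplaced sequence are each classed as transcribed pseudogenes.

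The annotation does not separate the family cleanly. Of the 12 probe sets, 6 carried 1 symbol, 5 of them Pisd-ps3 and 1 of them Pisd, and 6 carried several symbols. Pisd-ps1 and Pisd-ps3 shared 5 probe sets, and Pisd, Pisd-ps1 and Pisd-ps3 shared 1. Pisd-ps1 had 0 probe sets of its own, and 0 carried Pisd-ps2. Names ending in _x_at mark probe sets with some probes that also match other sequences; 6 of the 12 members had such names, against 5.42% of all probe sets. The probe sets also fell into groups by the transcript sequence they were designed from. In 3 groups the source was shared: source sequence A gave 3 probe sets, all annotated to Pisd-ps3; source sequence B gave 3; and source sequence C gave 2. Of the rest, 2 had a source of their own and 2 had none listed. The probe set annotated to Pisd alone came from source sequence B, as did 2 probe sets annotated to Pisd-ps1 and Pisd-ps3, and its name ends in _x_at. Its assignment to the parent gene alone is therefore uncertain, and no member separates the parent from the pseudogenes with certainty.

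All 12 members passed the filter on dim probe sets, which kept the brighter 50% by mean log2 signal over the 6 arrays. On every array they were brighter than 95% of the 27 probe sets for bacterial transcripts that serve as controls, a level that ran from 21.8 to 38.0. The progenitor marker genes Kit, Cd34 and Flt3 were measured on all arrays, with Kit between 4060.0 and 5552 in B.D(Chr5) and between 4184 and 5338 in C57B/L6. Of the erythroid markers, Klf1 was bright, with 6539 to 9239 in B.D(Chr5) and 6932 to 8919.5 in C57B/L6, while the haemoglobin gene Hba-a1 was dim and below the filter, with 0.912 to 20.02 in B.D(Chr5) and 13.9 to 39.8 in C57B/L6. Over the whole comparison, 41 of 22518 tested probe sets (0.182%) passed an adjusted p of 0.05 in limma, a linear model fitted to log2(signal + 16), 22 of them higher (0.0977%) and 19 lower (0.0844%) in B.D(Chr5). Of the 1548 tested probe sets with names ending in _x_at, 0.581% were called.

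The 3 Pisd-ps3 probe sets of source sequence A were higher in B.D(Chr5) on every array. The other 9 members had differences between 0.11 and 0.33 on the log2 scale. In the fit, 3 of the 12 members were called as higher, all 3 of source sequence A, where 0.0977% of all tested probe sets were called in that direction. This share is given for scale, since the family was chosen from the same comparison.

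Probe set 1453144_at, annotated to Pisd-ps3, had signals of 548, 464 and 736 in B.D(Chr5), against 89.8, 154 and 182 in C57B/L6. The lowest B.D(Chr5) array lay well above the highest C57B/L6 array, so the strains did not overlap. The means were 583 ± 139 in B.D(Chr5) and 142 ± 47.4 in C57B/L6 (SD, n = 3 each), a ratio of 4.10 and a log2 change of 1.95 ± 0.25 (SE). Among all 22518 tested probe sets this increase had rank 7.

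Probe set 1453145_at of the same source sequence read 1400.5, 1390.2 and 2579 in B.D(Chr5), against 530.4, 587 and 720.3 in C57B/L6. Again the strains did not overlap, and B.D(Chr5) replicate 3 stood above the other arrays of its strain. Its means were 1789.8 ± 683 in B.D(Chr5) and 612 ± 97.5 in C57B/L6 (SD, n = 3 each), with a log2 change of 1.47 ± 0.22 (SE). Neither of these names ends in _x_at or _s_at.

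The last probe set of this source, 1429452_x_at, gave 749, 761 and 1046 in B.D(Chr5), against 279, 360.4 and 333 in C57B/L6. Here too every B.D(Chr5) array was above every C57B/L6 array and B.D(Chr5) replicate 3 was the highest. It averaged 852 ± 168 in B.D(Chr5) and 324 ± 41.4 in C57B/L6 (SD, n = 3 each), and its log2 change was 1.34 ± 0.16 (SE). The 3 probe sets share a source and are 3 readings of related sequence rather than independent genes.

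The other members annotated to Pisd-ps3 alone showed no such gap. Probe set 1434975_x_at read 3592, 3854 and 4373 in B.D(Chr5), against 3008, 3585 and 3688 in C57B/L6, and its log2 change was 0.20 ± 0.10 (SE). The lowest B.D(Chr5) array lay below the highest C57B/L6 array. Probe set 1439069_a_at, of source sequence C, read 2915, 2675 and 3291 in B.D(Chr5), against 2248, 2353 and 2821 in C57B/L6, a log2 change of 0.26 ± 0.11 (SE). These strains overlapped as well. Of the 5 probe sets with the symbol Pisd-ps3 alone, the 3 of source sequence A thus had changes of 1.34 to 1.95 and the other 2 had changes of 0.20 and 0.26.

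**Figure D1:**
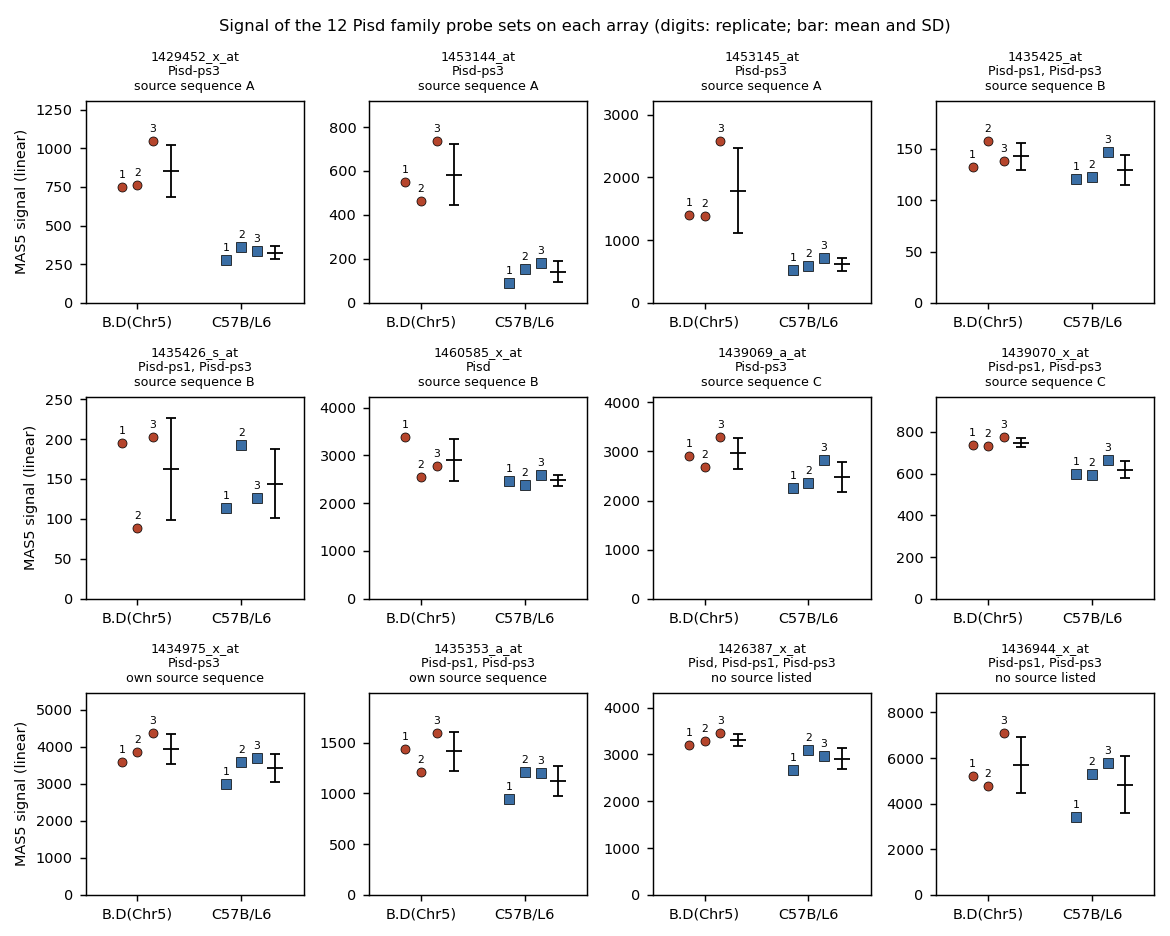
MAS5 signal on a linear scale from 0 for each of the 12 members, with 1 point per array, digits for the replicate, and the mean and SD beside each strain (n = 3 each). In the 3 panels of source sequence A all B.D(Chr5) points lie above all C57B/L6 points. The same holds, with smaller gaps, for 1426387_x_at, 1435353_a_at and 1439070_x_at. In most panels B.D(Chr5) replicate 3 is the highest point.

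The parent gene was read by 1 probe set of its own and by 1 shared with both Pisd-ps1 and Pisd-ps3. Probe set 1460585_x_at, annotated to Pisd, had signals of 3382, 2541 and 2776 in B.D(Chr5), against 2462, 2374 and 2596 in C57B/L6. The strains overlapped, since B.D(Chr5) replicate 2 was below C57B/L6 replicate 3. The means were 2899.7 ± 434 in B.D(Chr5) and 2477 ± 112 in C57B/L6 (SD, n = 3 each), with a log2 change of 0.22 ± 0.11 (SE). The shared probe set, 1426387_x_at, read 3207, 3294 and 3459 in B.D(Chr5), against 2659.7, 3094 and 2975 in C57B/L6, a log2 change of 0.19 ± 0.083 (SE). Its strains did not overlap, although the gap between them was small. On the same arrays, the log2 changes of the source sequence A probe sets exceeded that of the Pisd probe set by 1.73 for 1453144_at, 1.26 for 1453145_at and 1.13 for 1429452_x_at. Those of the other 8 members lay between -0.11 and 0.12 relative to it. Such differences compare changes, not levels, because probe sets differ in how strongly they bind.

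The 5 probe sets shared by Pisd-ps1 and Pisd-ps3 had log2 changes of 0.11 to 0.33. Probe set 1435353_a_at read 1440.2, 1212 and 1596 in B.D(Chr5), against 949, 1206 and 1202 in C57B/L6, and did not overlap by a margin of a few signal units. Probe set 1439070_x_at, of source sequence C like 1439069_a_at, read 739, 733 and 775 in B.D(Chr5), against 599.9, 592 and 666 in C57B/L6. It did not overlap either, and its log2 change was 0.27 ± 0.10 (SE). The brightest member, 1436944_x_at, read 5203, 4775 and 7096 in B.D(Chr5), against 3414, 5308 and 5781 in C57B/L6. Its strains overlapped, with coefficients of variation of 21.7% in B.D(Chr5) and 25.9% in C57B/L6.

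The remaining shared probe sets, both of source sequence B, were the dimmest members. Probe set 1435425_at read 132, 158 and 138 in B.D(Chr5), against 120.3, 122 and 147 in C57B/L6. Probe set 1435426_s_at read 195, 88.5 and 202 in B.D(Chr5), against 113, 193 and 126 in C57B/L6. Both overlapped between the strains. The log2 change of 1435426_s_at was 0.11 ± 0.31 (SE), and its sign turned with B.D(Chr5) replicate 1, B.D(Chr5) replicate 3 or C57B/L6 replicate 1 left out.

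**Figure D2:**
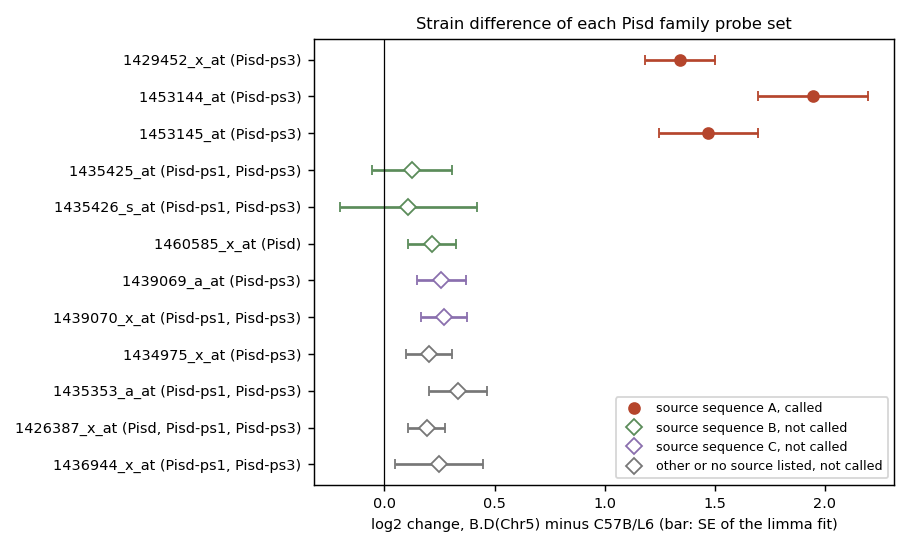
Log2 change between the strains, B.D(Chr5) minus C57B/L6, for each member, with bars for the SE of the limma fit. Filled circles mark the 3 called probe sets, which all come from source sequence A and lie between 1.34 and 1.95, and open diamonds mark the other 9, between 0.11 and 0.33.

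Counted over the family, all 12 log2 changes were positive, with a median of 0.25. The median over all 22518 tested probe sets was near 0, at 0.00025, with a 10th percentile of -0.21 and a 90th percentile of 0.23. Without source sequence A, the 9 other members had a median of 0.22. In 6 of the 12 members every B.D(Chr5) array was above every C57B/L6 array, which held for 4.16% of tested probe sets, and 9.4% did not overlap in either direction. Nothing is read from these counts, because the family was chosen on this comparison and 8 of its probe sets come from 3 shared source sequences.

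The same arrays were often the highest and the lowest across the family. B.D(Chr5) replicate 3 was the highest array for 10 of the 12, against 21.5% of all tested probe sets, and C57B/L6 replicate 1 was the lowest for 9 of the 12, against 14.0%. Both shares are given for scale, since the family was chosen on this comparison and all 12 changes were positive. For the 9 members outside source sequence A, the median deviation from a probe set's mean log2 value was 0.26 on B.D(Chr5) replicate 3, 0.11 on B.D(Chr5) replicate 1 and -0.011 on B.D(Chr5) replicate 2. In C57B/L6 it was -0.26 on replicate 1, -0.052 on replicate 2 and -0.030 on replicate 3. Over all tested probe sets the same median lay between -0.011 and 0.0076 on every array. B.D(Chr5) replicate 3 also had the highest median signal of the 6 arrays, 79.5 against 65.0 to 70.3 on the others. Its bacterial control level was the highest too, 38.0 against 21.8 to 31.8. The percentage of probe sets brighter than an array's own control level was smallest on it, 63.3% against 64.8% to 71.2%. The part of these in the family's values was not tested. With B.D(Chr5) replicate 3 left out the log2 change of 1436944_x_at was 0.080, and with C57B/L6 replicate 1 left out it was 0.018, against 0.25 with all arrays.

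The source sequence A probe sets kept most of their difference without these arrays. Without B.D(Chr5) replicate 3 their log2 changes were 1.77 for 1453144_at, 1.18 for 1453145_at and 1.19 for 1429452_x_at. With each array left out in turn, the log2 change ranged from 1.68 to 2.13 for 1453144_at, from 1.18 to 1.62 for 1453145_at and from 1.19 to 1.42 for 1429452_x_at. Which of them lay past the threshold varied with the arrays and settings, again as a description of values the family was chosen on. Probe set 1429452_x_at lost its call without C57B/L6 replicate 3, and 1453144_at lost it without B.D(Chr5) replicate 1 or C57B/L6 replicate 2. Probe set 1453145_at lost it without B.D(Chr5) replicate 1 or any 1 of the C57B/L6 arrays, and also with no filter on dim probe sets or with only the upper 25% tested. All 3 lost the call when the fit let the variance be independent of the signal level (eBayes without trend).

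**Figure D3:**
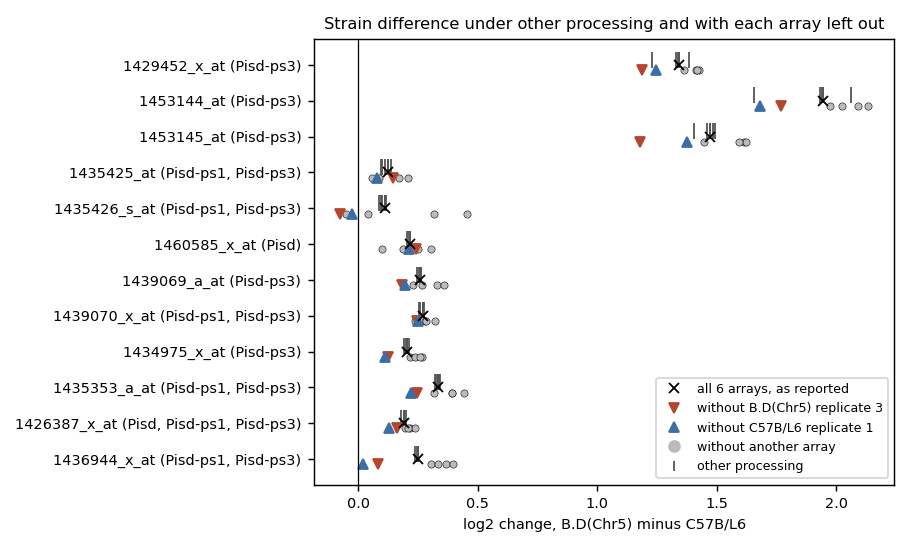
Log2 change of each member, B.D(Chr5) minus C57B/L6, with all arrays (crosses), with 1 array left out (triangles for B.D(Chr5) replicate 3 and C57B/L6 replicate 1, circles for the others) and under other processing (ticks). The source sequence A probe sets stay at 1.18 or above throughout, while 1435426_s_at crosses 0.

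Markers of other cell types differed in summed signal between the same arrays. For the B cell list, of which 4 of 5 genes had a probe set of their own, the sum ranged from 1210.5 to 3240.3 in B.D(Chr5) and from 877 to 1077 in C57B/L6, and was highest on B.D(Chr5) replicate 3. Of its 3 tested genes only Vpreb1 did not overlap, with 426 to 974 in B.D(Chr5) and 303 to 354 in C57B/L6. Cd79a and Ms4a1 overlapped, and Ms4a1 read 304, 224 and 1113 in B.D(Chr5), against 164, 206 and 261 in C57B/L6. The granulocyte and monocyte list, 4 of 5 genes, ranged from 37918 to 52545 in B.D(Chr5) and from 34036 to 37279 in C57B/L6. Mpo and Elane made up most of this sum and did not overlap. Mpo ranged from 22617 to 26239 in B.D(Chr5) and from 19743.5 to 21686 in C57B/L6. Elane ranged from 8822 to 17245 in B.D(Chr5) and from 6143 to 8802 in C57B/L6. Itgam and Csf1r overlapped between the strains. Stromal and endothelial genes, 4 of 4, ranged from 2400.5 to 2818 in B.D(Chr5) and from 1290.2 to 2184 in C57B/L6. Of these genes only Lpl did not overlap, with 465 to 538 in B.D(Chr5) and 145 to 394 in C57B/L6. Cxcl12, Col1a1 and Pecam1 overlapped, Pecam1 with 605 to 910 in B.D(Chr5) and 611 to 881 in C57B/L6. The remaining lists overlapped between the strains. Early progenitor markers, 3 of 5 genes, ranged from 9797 to 11279 in B.D(Chr5) and from 11090.1 to 12708 in C57B/L6, and T and NK cell markers, 5 of 5, from 2344 to 3660.1 in B.D(Chr5) and from 2709.6 to 3832 in C57B/L6. Erythroid markers, 3 of 5, ranged from 14115 to 17331.5 in B.D(Chr5) and from 13566 to 16131 in C57B/L6, and megakaryocyte markers, 3 of 3, from 3277 to 5044 in B.D(Chr5) and from 3948 to 5143 in C57B/L6. Nkg7 made up most of the T and NK cell sum, with 1634.8 to 2647 in B.D(Chr5) and 1704.5 to 2379.5 in C57B/L6. The T cell receptor complex gene Cd3d read 349, 277 and 258 in B.D(Chr5), against 418, 664 and 512 in C57B/L6. Thy1 read 363, 282 and 288 in B.D(Chr5), against 393, 522 and 573 in C57B/L6, and neither gene overlapped. Cd3e, of the same complex as Cd3d, did overlap, with 98.7 to 199 in B.D(Chr5) and 152 to 205 in C57B/L6. So did Cd8a, with 52.3 to 101 in B.D(Chr5) and 41.5 to 102 in C57B/L6. The log2 changes were -0.80 for Cd3d, -0.64 for Thy1 and -0.24 for Cd3e, but 0.24 for Cd8a and 0.14 for Nkg7. The transferrin receptor gene Tfrc of the erythroid list read 7356, 8091 and 7557 in B.D(Chr5), against 7171, 6642 and 6620.3 in C57B/L6, without overlap. By limma 0 of the 24 marker genes tested were called, while 9 had an unadjusted p under 0.05, against 5.2% of all tested genes, and 7 did not overlap between the strains, against 9.93%. The part of these cell types in the family's values was not tested, and in such bulk samples fewer cells of a type and less RNA per cell cannot be told apart.

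Genes that act before, beside and after the Pisd enzyme were compared next, as 44 genes in 8 roles. A probe set of their own was present for 42 of them and 41 were bright enough to test, each by its brightest probe set. In limma 0 of the 41 passed after adjustment, 1 had an unadjusted p under 0.05 and 5 did not overlap between the strains. Over all tested genes these shares were 0.158%, 5.2% and 9.93%. The median log2 change was -0.0020, against -0.0084 for all 10737 tested genes, and 0 of the 41 changed by more than 0.5 in either direction.

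In the supply of substrate, Ptdss1 and Ptdss2, which make phosphatidylserine, had log2 changes of -0.0016 and -0.056. Ptdss1 read 1471, 1296 and 1426 in B.D(Chr5), against 1365, 1527 and 1308 in C57B/L6, with overlap. Genes that carry phospholipid across the intermembrane space or serve related transfer were likewise close, with Prelid3b at -0.11 and Prelid2 at -0.17. In the CDP-ethanolamine route, Cept1, whose enzyme makes both phosphatidylethanolamine and phosphatidylcholine, had a log2 change of 0.16 ± 0.082 (SE; limma adjusted p = 1.00). Its signals were 2134, 2048 and 2049 in B.D(Chr5), against 1859, 1757 and 1966 in C57B/L6, which did not overlap. Etnk1, the ethanolamine kinase that opens this route, had a log2 change of -0.084.

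Among genes that make phosphatidylcholine, Chpt1, a cholinephosphotransferase, had the highest value of the 41 tested genes, a log2 change of 0.39 ± 0.18 (SE; limma adjusted p = 1.00). It read 367, 259 and 285 in B.D(Chr5), against 197, 265 and 217 in C57B/L6, so that the strains overlapped. Chka, the choline kinase alpha gene, went the other way with -0.24 ± 0.12 (SE). In the inner membrane, Opa1, the fusion GTPase, had -0.14 and Yme1l1, a protease that cuts Opa1, had 0.070. The 6 genes of cardiolipin synthesis all lay between -0.057 and 0.058, with Tamm41, the mitochondrial CDP-diacylglycerol synthase gene, at -0.057 and Lclat1 at 0.058.

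Phosphatidylethanolamine is also the lipid to which Atg8 proteins are joined in autophagy. Of the 10 genes of this step, Gabarapl1, an Atg8 family member, had the lowest value of the pathway, a log2 change of -0.32 ± 0.10 (SE; limma adjusted p = 0.834). Its signals were 1995, 1691 and 1595 in B.D(Chr5), against 2037, 2333 and 2223 in C57B/L6, without overlap. Map1lc3a, another Atg8 family member, had -0.27, while Atg3, Atg5, Atg7 and Map1lc3b had values between 0.043 and 0.15. Gabarap, of the same family, had 0.11. It read 5015, 4824 and 4953 in B.D(Chr5), against 4738, 4509 and 4465 in C57B/L6, also without overlap. The 4 genes that add ethanolamine phosphate to GPI anchors lay between -0.069 for Pigo and 0.14 for Pigg.

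**Figure D4:**
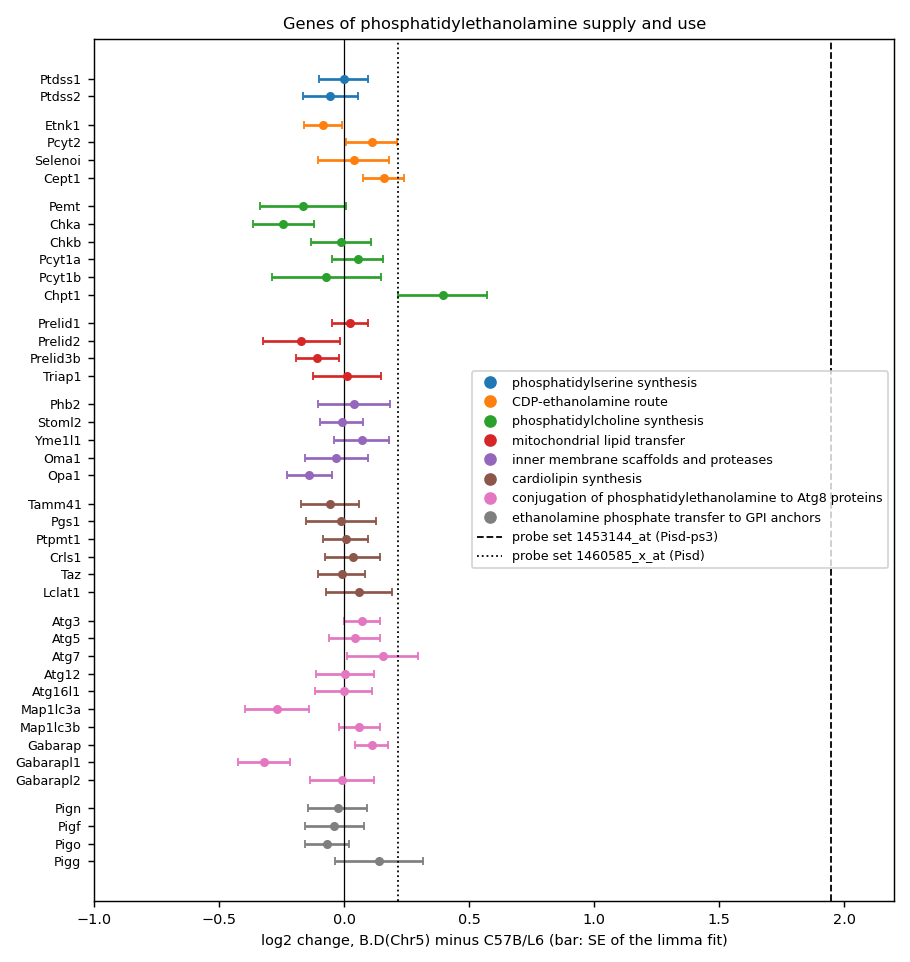
Log2 change, B.D(Chr5) minus C57B/L6, for the 41 tested genes of phosphatidylethanolamine supply and use, by role, with bars for the SE. All points lie between -0.32 and 0.39, short of the dashed line at 1.95 for Pisd-ps3 probe set 1453144_at, and the dotted line marks the Pisd probe set at 0.22.

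The genes beside the family members on the chromosomes were read in the same fit. Around Pisd on chromosome 5, limma called 0 of the 20 nearest tested genes, 10 on each side, and 0 had an unadjusted p under 0.05. The log2 changes ran from -0.24 to 0.39 with a median of -0.0084, and 3 of the 20 did not overlap between the strains. Over all tested genes 0.158% were called, 5.2% had an unadjusted p under 0.05 and 9.93% did not overlap. On the side where Ppp1cb is the first tested gene, this phosphatase catalytic subunit gene had a log2 change of -0.066, Fosl2, an AP-1 transcription factor gene, had 0.39 ± 0.20 (SE; limma adjusted p = 1.00), and Babam2 had 0.0025. Fosl2 read 484, 339.8 and 590.4 in B.D(Chr5), against 319.9, 319 and 407 in C57B/L6, with overlap. On the other side Prr14l had 0.015, Depdc5, a subunit of the GATOR1 complex that restrains mTORC1, had 0.17, and Ywhah, a 14-3-3 protein gene, had -0.064.

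Pisd-ps1 and Pisd-ps2 stand at the start of the annotated genes of their chromosomes, with tested genes on only 1 side. Of the 10 tested genes beside Pisd-ps1 limma called 0, and Rnf185 alone had an unadjusted p under 0.05, with a log2 change of 0.35. Sfi1, a centrosome gene that follows Pisd-ps1, had 2 tested probe sets with log2 changes of 0.098 ± 0.28 and 0.048 ± 0.24 (SE). Both were dim, with signals over the 6 arrays of 46.6 to 96.3 and 49.9 to 81.7. Eif4enif1 and Drg1 had log2 changes of 0.015 and 0.0057. Of the 10 beside Pisd-ps2, limma called 0 and 0 had an unadjusted p under 0.05. Their values ran from -0.26 to 0.029, with Scaf8 at -0.066, Tiam2 at -0.0034 and Tfb1m, a mitochondrial ribosomal RNA methyltransferase gene, at 0.027. For Pisd-ps3, which is unplaced, no neighbours could be read.

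**Figure D5:**
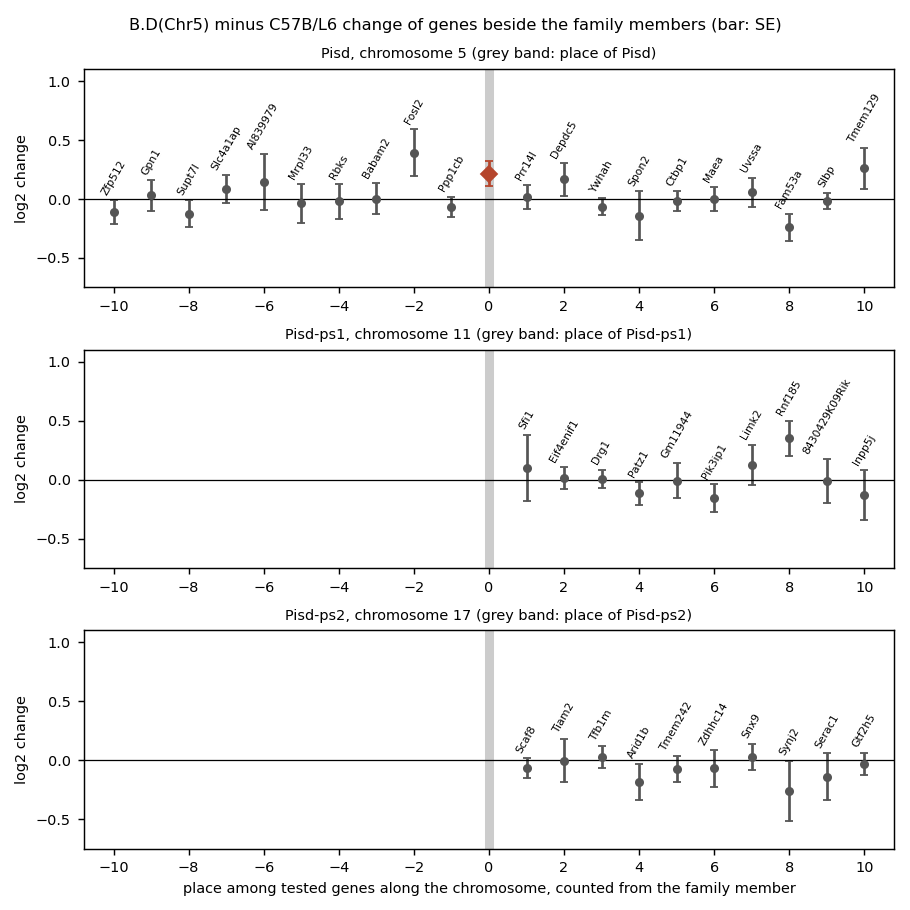
Log2 change, B.D(Chr5) minus C57B/L6, of tested genes in chromosome order around Pisd, Pisd-ps1 and Pisd-ps2, with bars for the SE. The diamond is Pisd probe set 1460585_x_at at 0.22, and the neighbours lie between -0.26 and 0.39, with 0 called.

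Which genes shared the pattern of a member over the 6 arrays was described by the root mean square difference between their log2 values after each was centred on its own mean. This was done for the 5 members whose values spanned at least 1 on the log2 scale. Within source sequence A the 3 pairs differed by 0.19 to 0.37, and the 27 pairs of these with other members differed by 0.51 to 0.98. The nearest genes outside the family were Cd163l1 for 1429452_x_at (0.16), Fam102b for 1453145_at (0.24) and Lcorl, a transcription regulator gene on chromosome 5, for 1453144_at (0.31). The Cd163l1 probe set has a name ending in _x_at and was dim, with 128 to 160 in B.D(Chr5) and 34.2 to 48.8 in C57B/L6. Lcorl read 376, 396 and 493 in B.D(Chr5), against 98.3, 115 and 89.98 in C57B/L6. The other genes among the 3 nearest of a source sequence A probe set were Rwdd3 (0.25 from 1429452_x_at) and the immunoglobulin light chain variable gene Iglv1 (0.36 from 1453144_at). All 5 of these genes were themselves called as higher in B.D(Chr5), and likeness over these arrays includes that strain difference. Besides Lcorl, Cd163l1 is on chromosome 7, Fam102b and Rwdd3 are on chromosome 3 and Iglv1 is on chromosome 16.

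The wide spread of 1436944_x_at and 1435426_s_at was matched by genes that were not called. For 1436944_x_at the nearest were D930048N14Rik at 0.051, Pik3r5, which encodes a regulatory subunit of phosphoinositide 3-kinase gamma, at 0.069 and Cnbd2 at 0.071. Pik3r5 read 231, 186 and 299.9 in B.D(Chr5), against 147, 216 and 229.7 in C57B/L6, with the same array highest and the same array lowest as in the family member. For 1435426_s_at the nearest were the kinase genes Wnk1 and Pik3cd at 0.11 and 0.12 and Tifab at 0.12.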

How the data were processed

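Total RNA of 6 samples was measured on 1-colour Affymetrix arrays, 3 for B.D(Chr5) and 3 for C57B/L6. The authors deposited linear intensity values, 1 per probe set and array, and the submitters' processing notes name MAS5 without a version or settings. Every array has the same mean, 500.003, once the top and bottom 2% of its values are dropped. Control probe sets (64) were left out. Symbols came from the platform annotation and were updated through Entrez identifiers to RefSeq (GRCm38.p6), which held 34741 of 34945 probe sets with 1 symbol.

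Strain differences were fitted on log2(signal + 16) in R 4.3.3 by limma 3.58.1 (lmFit, then eBayes with a mean-variance trend), with no term besides strain and two-sided p-values, using Benjamini-Hochberg adjustment over the 22518 brighter probe sets (the upper 50% by mean log2 signal). Fold changes on this scale understate changes of dim probe sets. The number of arrays limits the precision. The fit was tested on simulated data. The members and the gene lists were chosen with earlier results of these data known. Named were all members, the 2 pathway genes of smallest p per role and the 3 nearest tested neighbours on each side. Any called gene of either list and the 3 genes most like a member were named too. Rnf185, Atg3, Atg5, Atg7, Map1lc3b and Gabarap were named after their values were seen. Alternatives covered the pseudocount, the filter, the normalization, the variance model, the replicate number as a block, a minimum change of 1.5-fold and each array left out. Other background corrections need scanner files, which were not used here.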

Additional observations from a re-analysis of the deposited data

How the results depend on the processing

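The number of arrays, 3 per strain, limits what could be called. The count of called probe sets was 41 with all arrays, 21 with the upper 25% of probe sets tested, 67 with centring on the median, 25 for eBayes without trend and 27 with the replicate block, and ran from 21 to 73 with 1 array left out (21 with B.D(Chr5) replicate 1 left out, 73 with B.D(Chr5) replicate 2, 24 with C57B/L6 replicate 2 and 22 with C57B/L6 replicate 3). Of these calls 53.7% were higher in B.D(Chr5), and 72.6% without B.D(Chr5) replicate 2. Of the 12 family members 3 were called, 2 with no filter on dim probe sets, 1 with the upper 25% tested, which left 1453144_at and 2 other members untested, and 0 for eBayes without trend; the count ran from 1 to 3 with 1 array left out (1 for B.D(Chr5) replicate 1 and for C57B/L6 replicates 2 and 3) and was 3 under the replicate block. Same-numbered arrays had deviations that correlated at -0.11, -0.20 and 0.20, and differently numbered arrays at -0.16 to 0.30. With 3 arrays per strain these values cannot show whether the numbers pair the samples. The pathway and the neighbours had 0 called genes under every alternative. Of 165 member values under alternatives, 150 kept direction and call, 12 lost the call and 3 changed sign, all of 1435426_s_at, which ranged from -0.076 to 0.46 with 1 array left out. Among 385 values of other named genes, 27 changed sign. With quantile normalization Ptdss1 was 0.0018, and with centring on the median Babam2 was -0.0094 and Drg1 -0.0062. With 1 array left out, the log2 change ranged from -0.049 to 0.062 for Ptdss1, -0.16 to 0.017 for Ptdss2, -0.041 to 0.18 for Yme1l1, -0.15 to 0.020 for Tamm41 and -0.037 to 0.18 for Lclat1. Among neighbours it ranged from -0.15 to 0.098 for Babam2, -0.062 to 0.079 for Prr14l, -0.095 to 0.33 for Sfi1, -0.047 to 0.064 for Eif4enif1, -0.033 to 0.051 for Drg1, -0.076 to 0.040 for Tiam2 and -0.033 to 0.064 for Tfb1m. The cause of these changes was not tested.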
